A study of Mus musculus with 12 samples.

Results

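AP-1 and the Egr factors are the transcription factors that cells switch on first after a stimulus, and 10 of their genes were followed here: Fos, Fosb, Fosl1, Fosl2, Jun, Junb, Jund, Egr1, Egr2 and Atf3. They were taken by name, with every probe that the platform annotation assigns to them, out of 16593 genes with a probe. Of the 25697 probes on each array, 9 belonged to these genes, 1 probe for each gene except Fosl2, which had none and was not analysed here. The arrays were Illumina bead arrays, which report the mean signal of the beads of each probe. They were hybridised with RNA from mouse embryonic fibroblasts in primary culture (MEFs), which are connective-tissue cells isolated from embryos, of strain C57BL6/J at embryonic day 15.5. The 12 arrays made 4 groups of 3 biological replicates. The double-knockout groups (dKO, Cry1-/-Cry2-/-) lacked both cryptochromes, repressors of the circadian clock, and received dexamethasone (dKO Dex) or ethanol (dKO EtOH). The control groups, Cry1+/-Cry2+/- by the sample labels and called WT in the design text, received the same agents (control Dex and control EtOH). Dexamethasone (Dex) is a synthetic glucocorticoid that activates the glucocorticoid receptor, and it was given at 1 µM for 16 hours, with ethanol (EtOH) as its vehicle. Heterozygous controls carry a deletion of 1 copy of each gene, so the genotype comparisons set full against partial loss. Nothing in the labels says how many embryos or cell isolates lie behind the 3 replicates of a group, so the p-values measure the spread between these samples only.

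AP-1 is a dimer of proteins with a basic leucine zipper. Proteins of the Fos family bind DNA only with a partner of the Jun family, whereas Jun proteins can also pair with each other or with Atf factors. The genes are called immediate early because serum, growth factors or stress raise their transcripts within minutes, without new protein synthesis, after which the transcripts fall again. In fibroblasts AP-1 drives genes of proliferation, matrix breakdown and inflammation, and the ligand-bound glucocorticoid receptor represses many AP-1 driven genes by contact with Fos and Jun rather than by lowering their amount. Egr1 and Egr2 are zinc finger factors of the same immediate early class.

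The promoter windows of 3 members whose signal differed between groups are printed because they hold some of the sites through which these genes are known to answer to stimuli. RefSeq (build GRCm38.p6) gave windows of 300 bases, 250 before and 50 after the start site, for 8 of the 10 genes, 12 windows in all, 5 of them of Egr2. Capitals mark TGACGT or its reverse complement ACGTCA, the core of the cAMP response element bound by Creb and Atf factors, and in Egr2 also the CArG box, the site of serum response factor. Fos lies at chr12:85473640-85473939 (plus strand), Atf3 at chr1:191183284-191183583 (minus strand) and the Egr2 window at chr10:67537619-67537918 (plus strand), and each is written 5′ to 3′ along its gene.
Fos: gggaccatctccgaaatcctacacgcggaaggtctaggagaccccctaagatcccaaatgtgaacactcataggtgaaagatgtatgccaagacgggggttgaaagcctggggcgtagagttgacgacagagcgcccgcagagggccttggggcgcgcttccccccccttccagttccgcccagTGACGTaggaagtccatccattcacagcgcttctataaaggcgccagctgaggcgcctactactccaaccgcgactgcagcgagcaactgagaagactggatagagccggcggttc
Atf3: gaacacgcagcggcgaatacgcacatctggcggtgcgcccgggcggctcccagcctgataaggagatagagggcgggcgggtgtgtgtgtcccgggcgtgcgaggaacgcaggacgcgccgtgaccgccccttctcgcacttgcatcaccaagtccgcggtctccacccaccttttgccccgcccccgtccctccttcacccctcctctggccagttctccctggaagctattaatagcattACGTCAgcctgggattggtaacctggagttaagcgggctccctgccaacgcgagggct
Egr2: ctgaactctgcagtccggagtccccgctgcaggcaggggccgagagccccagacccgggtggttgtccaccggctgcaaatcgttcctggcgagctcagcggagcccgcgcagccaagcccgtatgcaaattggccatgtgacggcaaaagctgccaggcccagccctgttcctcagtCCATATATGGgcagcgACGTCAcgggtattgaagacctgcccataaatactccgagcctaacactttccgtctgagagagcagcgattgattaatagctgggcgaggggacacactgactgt
In Fos the element lay from base -66 to -61 before the start site, and in Atf3, on the opposite strand, from -8 to -3. In Egr2 the element lay from -56 to -51 on the opposite strand, with the CArG box from -72 to -63. Neither motif was found in the windows of the other genes searched, Jun among them. Searched on both strands of all 32817 RefSeq windows of this length, TGACGT was found in 7.51% and the CArG box in 1.63%. The AP-1 site TGANTCA, present in 7.81% of all windows, and the glucocorticoid half-site AGAACA, present in 19%, had no match in any window of these genes. The E-box CACGTG, the site of the clock activators, was found in 7.15% of all windows and, among these genes, in another Egr2 window from -27 to -22. No motif here overlapped another, and a match is a stretch of letters, not a measured binding event.

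Signals were background corrected, quantile normalized across arrays and put on a log2 scale, and a level below is such a value. A probe counts as above background on an array when its deposited detection p-value, which compares it with negative control beads, was under 0.01. Per array 10953 to 11527 probes (42.6% to 44.9%) passed that mark, and 8420 genes were tested. Differences are given with the standard error (SE) of a linear model fitted with limma. Adjusted p-values follow Benjamini and Hochberg over the 8420 genes, or over those of another fit where one is named. Called means that this value was under 0.05. The glucocorticoid targets Fkbp5 and Tsc22d3 checked the treatment: Fkbp5 was at 11.66 in dKO Dex and 6.84 in dKO EtOH, and at 12.27 in control Dex and 7.77 in control EtOH, while Tsc22d3 was at 14.05 and 12.10 in the dKO pair and at 13.39 and 11.03 in the control pair. Cry1 was at background on all 12 arrays and Cry2 was above it on 10, including all 6 dKO arrays, and since the files do not place these probes relative to the deletions they do not check the genotype. Per2, a clock gene repressed by cryptochromes, was at 10.23 in dKO Dex and 10.04 in dKO EtOH, against 6.83 in control Dex and 7.18 in control EtOH. On the third principal component, 14.9% of the variance, 3 arrays stood apart, with scores of -31.10 for control Dex replicate 3, -16.35 for dKO EtOH replicate 1 and -14.07 for dKO EtOH replicate 2, against -3.25 to 14.52 for the others. Results are therefore also given for the 9 arrays without these 3, a fit in which dKO EtOH rests on replicate 3 alone and is assumed to vary like the other groups. Within dKO EtOH it was replicate 3 that differed from its fellows, by a median of 0.26 and 0.24 log2 units over probes, while replicates 1 and 2 differed by 0.14, so that values without the 3 arrays rest on the discordant array. In control Dex replicate 3 differed from the others by 0.27 and 0.22, against 0.15 between those.

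The fibroblast label held: 10 of 11 listed fibroblast markers had a probe and all 10 were detected, among them Col1a1, Col3a1, Pdgfra and Vim. Their summed linear signal was 99834 to 104700 in dKO Dex and 99278 to 108656 in dKO EtOH, against 61555 to 68622 in control Dex and 64241 to 67994 in control EtOH. Macrophage markers were also present: 7 of 11 listed (Adgre1, Lyz2, Cd14, Mrc1, Fcgr3, C1qa, C1qb) were detected, while Itgam was at background on all arrays. Over the 9 macrophage markers with a probe the summed signal was 48474 to 49811 in dKO Dex and 44148 to 64303 in dKO EtOH, against 68576 to 77699 in control Dex and 68026 to 76406 in control EtOH. Pecam1, Cdh5 and Kdr of endothelium, Cdh1, Krt8 and Krt18 of epithelium and Tubb3 and Sox2 of neural cells were at background throughout, but Vwf and Eng, Krt19, and Nes and Map2 of the same lists were detected. The neural sum was 2386 to 2467 in dKO Dex and 1224 to 1538 in dKO EtOH, against 1408 to 2004 in control Dex and 895 to 937 in control EtOH, while the endothelial sum was at most 1119 and the epithelial sum at most 370. Smooth muscle markers, 4 of 5 detected (Acta2, Myh11, Tagln, Lmod1), summed to 72167 to 77512 over all groups. The part of these cells in the results was not tested.

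Of the 9 measured members, 8 were tested. Fosb, a Fos family member, was at background on all 12 arrays, with signals of 179.1 to 226, and was not tested. Egr1, Fos, Jun, Junb, Atf3 and Fosl1 were above background on all 12 arrays, and Egr2 and Jund on 9 each. The clearest features with Dex were a higher Fos and lower Egr1 and Egr2 in both genotypes, and a lower Atf3 in control cells. By genotype they were lower Fos and Atf3 in dKO cells, and lower Jun in dKO cells under Dex. Jun was also called higher with Dex in control cells and lower with Dex in dKO cells, calls that depended on arrays and processing. The plot of the member signals by array shows these patterns.

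**Figure D1:**
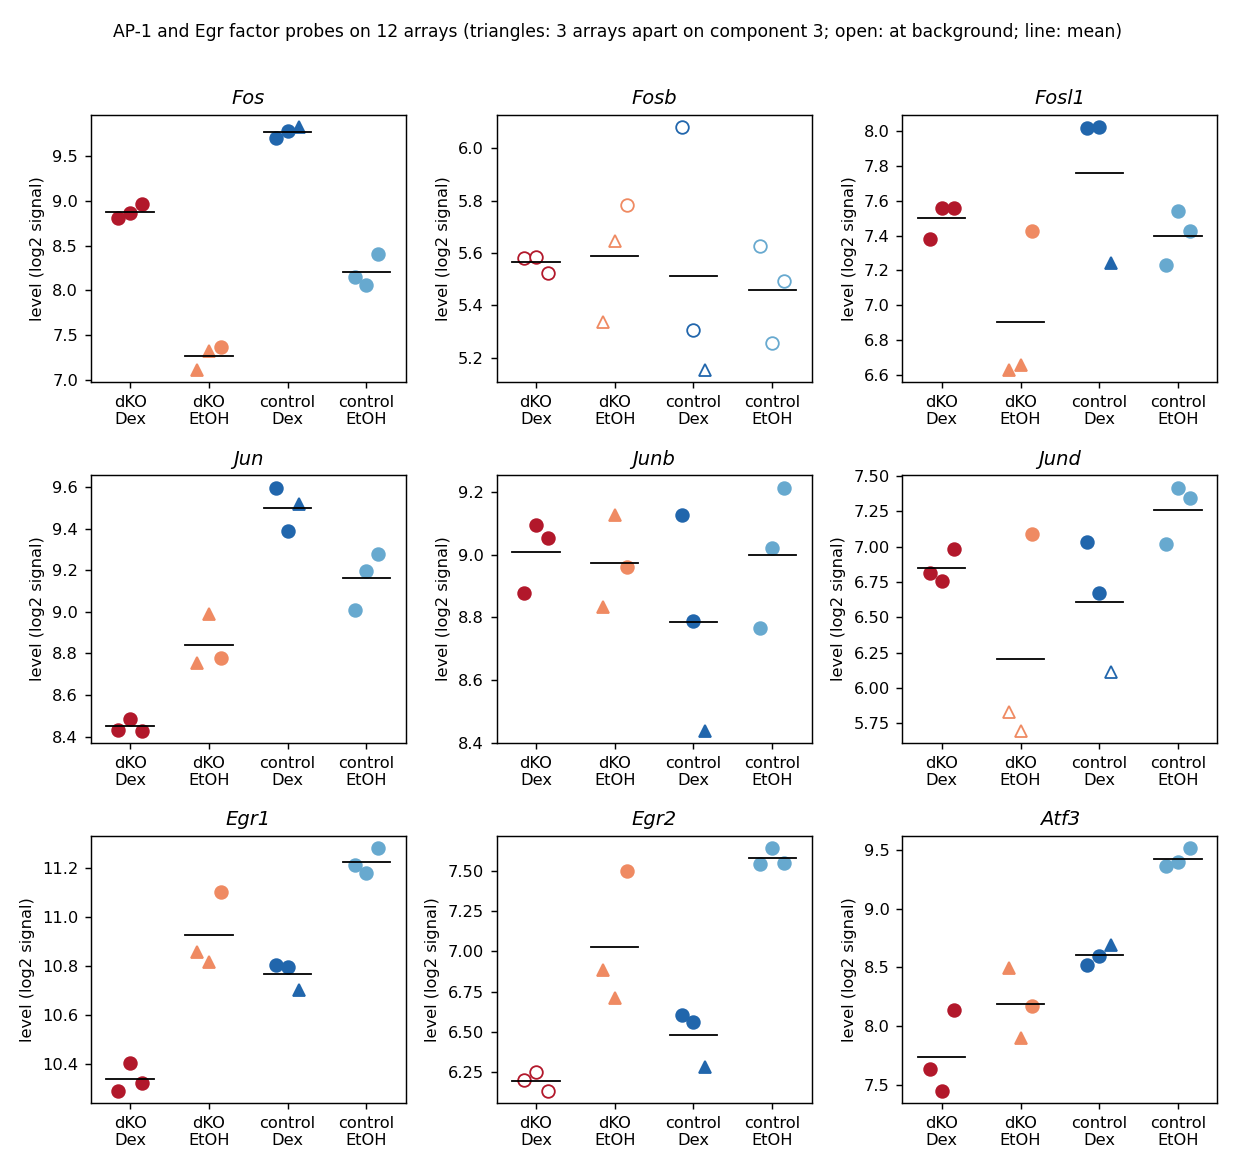
Log2 signal (vertical axis, a separate range per gene) of the 9 measured genes on each of the 12 arrays, by group; lines are group means, open symbols arrays at background and triangles the 3 arrays that stood apart. The groups of Fos, Jun, Egr1 and Egr2 do not overlap, whereas those of Junb and Fosb do. How many of all tested genes have groups apart in this way was not counted. Open symbols are all of Fosb, dKO Dex in Egr2 and 3 arrays in Jund.

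Fos encodes the founding Fos protein, which has no DNA binding of its own without a Jun partner. Fos read 8.81, 8.87 and 8.97 in dKO Dex and 7.11, 7.32 and 7.37 in dKO EtOH, against 9.71, 9.78 and 9.83 in control Dex and 8.15, 8.06 and 8.41 in control EtOH. All 4 groups were apart from each other, control Dex highest and dKO EtOH lowest. Fos rose with Dex in dKO cells by 1.62 ± 0.11 (log2 ± SE, 3.07-fold, adjusted p = 2.177e-06) and in control cells by 1.56 ± 0.11 (2.96-fold, adjusted p = 2.003e-06). The difference between these responses was 0.05, with a 95% interval of -0.29 to 0.40 (adjusted p = 0.8653), and its sign turned with no background correction, with an offset of 50, with the deposited processed values and without the 3 arrays. Fos fell in dKO against control cells by 0.94 ± 0.11 in EtOH (adjusted p = 0.0001179) and by 0.89 ± 0.11 in Dex (adjusted p = 0.0001991). These 4 calls were kept without the 3 arrays, at 1.52, 1.54, -0.84 and -0.86, and in each fit without a single array. Each dKO Dex array lay above each control EtOH array.

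Fosl1 (Fra-1), a Fos protein without a strong activation domain, read 7.38, 7.56 and 7.56 in dKO Dex and 6.63, 6.66 and 7.43 in dKO EtOH, against 8.01, 8.02 and 7.24 in control Dex and 7.23, 7.54 and 7.43 in control EtOH. The 3 arrays that stood apart were the lowest of their groups, and the group ranges overlapped. No comparison passed the test, with Dex differences of 0.59 ± 0.24 in dKO cells (adjusted p = 0.1185) and 0.36 ± 0.24 in control cells (adjusted p = 0.3299), and genotype differences of -0.49 ± 0.24 in EtOH (adjusted p = 0.141) and -0.26 ± 0.24 in Dex (adjusted p = 0.4981). Without the 3 arrays Fosl1 was called in control cells with Dex (0.62, adjusted p = 0.004455) and in dKO against control cells under Dex (-0.52, adjusted p = 0.009685), while the dKO Dex difference was 0.07 and the EtOH genotype difference 0.03. Without control Dex replicate 3 alone the dKO Dex difference was 0.59 (adjusted p = 0.0498), and without dKO EtOH replicate 3 alone it was 0.85 (adjusted p = 0.0135), with a genotype difference in EtOH of -0.76 (adjusted p = 0.0166).

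Jun encodes the main transactivating Jun protein. Jun read 8.43, 8.48 and 8.43 in dKO Dex and 8.75, 8.99 and 8.78 in dKO EtOH, against 9.60, 9.39 and 9.52 in control Dex and 9.01, 9.20 and 9.28 in control EtOH. All 4 groups were apart, with control Dex at the top and dKO Dex at the bottom. Under Dex, Jun was 1.05 ± 0.11 lower in dKO than in control cells (2.08-fold, adjusted p = 3.463e-05), and this call was kept without the 3 arrays (-1.05, adjusted p = 0.0002347) and without any single array. Under EtOH the genotype difference was -0.32 ± 0.11 (adjusted p = 0.04231). With Dex, Jun fell by 0.39 ± 0.11 in dKO cells (adjusted p = 0.02871) and rose by 0.34 ± 0.11 in control cells (1.27-fold, adjusted p = 0.04005). The difference between these responses was -0.73 ± 0.15, with a 95% interval of -1.06 to -0.41 (adjusted p = 0.03433).

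These smaller Jun differences kept their direction, but their calls depended on the arrays included and on the processing. With median scaling Dex in control cells gave 0.22 (adjusted p = 0.2004), Dex in dKO cells -0.31 (adjusted p = 0.09345) and the difference of responses -0.53 (adjusted p = 0.05942). With no filter on low signals all 4 calls were lost (adjusted p of 0.06109 to 0.08729), and those of the 3 pairwise differences also with only the compared groups in the fit. A detection p under 0.05 or a fit with trend and robust variances ended the Dex call in control cells and the genotype call in EtOH, and taking all probes ended the Dex call in control cells. Without the 3 arrays they were -0.39 for genotype in EtOH (adjusted p = 0.09772), -0.33 for Dex in dKO cells (adjusted p = 0.2109), 0.33 for Dex in control cells (adjusted p = 0.05957) and -0.66 for the difference of responses (adjusted p = 0.1248). The genotype call in EtOH was lost when any 1 of control EtOH 2 or 3, dKO EtOH 1 or 3, or dKO Dex 1, 2 or 3 was left out (-0.32 to -0.26 in those fits, adjusted p up to 0.148). The Dex call in dKO cells was lost without dKO EtOH 2 or dKO Dex 1, 2 or 3 (-0.41 to -0.32, adjusted p up to 0.118). The Dex call in control cells was lost without control EtOH 1 or 2, control Dex 1 or 3, or any dKO Dex array (0.26 to 0.36, adjusted p up to 0.161). The difference of responses passed the test only without control Dex 2 or dKO EtOH 3, and without each other array it was -0.79 to -0.65 (adjusted p up to 0.0861).

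Junb, a Jun protein that can restrain Jun in growth control, read 8.88, 9.10 and 9.05 in dKO Dex and 8.83, 9.13 and 8.96 in dKO EtOH, against 9.13, 8.79 and 8.44 in control Dex and 8.77, 9.02 and 9.22 in control EtOH. The groups overlapped and no comparison passed the test. The largest of its 4 differences between pairs of groups was 0.22 ± 0.17, for dKO against control in Dex (95% interval -0.15 to 0.60, adjusted p = 0.4068).

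Jund, the Jun protein abundant in resting cells, was close to background. Jund read 6.81, 6.76 and 6.98 in dKO Dex and 5.83, 5.70 and 7.09 in dKO EtOH, against 7.03, 6.68 and 6.11 in control Dex and 7.02, 7.42 and 7.34 in control EtOH. The 3 arrays at background, dKO EtOH 1 and 2 and control Dex 3, were those that stood apart. Jund was called lower in dKO than in control cells under EtOH (-1.05 ± 0.32, adjusted p = 0.033), although the group ranges overlapped, and without the 3 arrays this difference was -0.17 (adjusted p = 0.6032). Leaving out any 1 control EtOH array, or dKO EtOH 1 or 2, also ended the call (-1.17 to -0.80, adjusted p up to 0.131). So did no filter, only the compared groups or the replicate block (adjusted p up to 0.0647). With Dex the difference was 0.64 ± 0.32 in dKO cells (adjusted p = 0.2038) and -0.65 ± 0.32 in control cells (adjusted p = 0.1917). The difference of these responses was 1.30 ± 0.46 (adjusted p = 0.1366). Without dKO EtOH 3 the dKO EtOH group lay wholly at background, so that Jund was at least 1.65-fold higher with Dex in dKO cells (adjusted p = 0.00618) and the difference of responses, called there, has no readable size. In the same fit the Dex difference in control cells was -0.65 (adjusted p = 0.0364).

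Egr1, a zinc finger activator of growth factor and repair genes, had the highest raw signals of the 9 probes, 1304.8 to 3008.4. Egr1 read 10.29, 10.40 and 10.32 in dKO Dex and 10.85, 10.81 and 11.10 in dKO EtOH, against 10.80, 10.79 and 10.70 in control Dex and 11.21, 11.18 and 11.28 in control EtOH. The Dex arrays of each genotype lay below its EtOH arrays, and the dKO arrays of each treatment below the control arrays. Egr1 fell with Dex by 0.59 ± 0.10 in dKO cells (adjusted p = 0.001873) and by 0.46 ± 0.10 in control cells (adjusted p = 0.005921), and without the 3 arrays the differences were -0.76 and -0.42. The difference between these responses was -0.13 (95% interval -0.43 to 0.17, adjusted p = 0.5951). Under Dex, Egr1 was 0.43 ± 0.10 lower in dKO than in control cells (adjusted p = 0.008717). With median scaling the Dex call in dKO cells (-0.43, adjusted p = 0.0597) and the genotype call under Dex (-0.41, adjusted p = 0.0649) were lost. The EtOH genotype difference of -0.30 ± 0.10 (adjusted p = 0.04079) was -0.12 without the 3 arrays. Its call was lost when any 1 control EtOH or dKO Dex array, control Dex 2, or dKO EtOH 1 or 2 was left out. The difference was then -0.32 to -0.24 (adjusted p up to 0.147). A detection p under 0.05, no filter, only the compared groups or the replicate block also ended the call (adjusted p up to 0.0954).

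Egr2, best known from the myelin programme of Schwann cells and also induced by serum in fibroblasts, read 6.20, 6.25 and 6.13 in dKO Dex, all at background, and 6.88, 6.71 and 7.50 in dKO EtOH. In control cells Egr2 read 6.60, 6.56 and 6.28 in Dex and 7.54, 7.64 and 7.55 in EtOH. The Dex arrays of each genotype lay below its EtOH arrays. Egr2 fell by 1.09 ± 0.17 with Dex in control cells (adjusted p = 0.0008371), and it was at least 1.64-fold lower with Dex in dKO cells (adjusted p = 0.00751), a bound set by the lowest signal above background on each array. Both calls were kept without the 3 arrays. In EtOH, Egr2 was 0.55 ± 0.17 lower in dKO than in control cells (adjusted p = 0.03616), but dKO EtOH 3 alone lay near the control level, and without the 3 arrays the difference was -0.08 (adjusted p = 0.6876). That call was also lost without any 1 control EtOH array, dKO EtOH 1 or 2, or dKO Dex 1. The difference was then -0.57 to -0.39 (adjusted p up to 0.143). No filter, trend and robust variances, only the compared groups or the replicate block ended the call too (adjusted p up to 0.0832). Under Dex, Egr2 was at least 1.12-fold lower in dKO cells, which did not pass the test over 12 arrays (adjusted p = 0.2784) and did without the 3 arrays (adjusted p = 0.01161).

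Atf3, a stress-induced factor that dimerises with Jun and often represses, read 7.64, 7.44 and 8.14 in dKO Dex and 8.49, 7.89 and 8.17 in dKO EtOH, against 8.52, 8.60 and 8.69 in control Dex and 9.37, 9.40 and 9.52 in control EtOH. Every dKO array lay below every control array of either treatment, and the dKO groups overlapped. Atf3 was lower in dKO than in control cells by 1.24 ± 0.18 under EtOH (2.36-fold, adjusted p = 0.000453) and by 0.86 ± 0.18 under Dex (1.82-fold, adjusted p = 0.005515). Atf3 fell with Dex in control cells by 0.82 ± 0.18 (adjusted p = 0.006982), and these 3 calls were kept without the 3 arrays and without any single array. In dKO cells the Dex difference of -0.45 ± 0.18 did not pass (adjusted p = 0.1206), although it did without dKO Dex 3, the highest array of its group (-0.65, adjusted p = 0.0304). The difference between the genotypes' responses was 0.38, with a 95% interval of -0.18 to 0.93 (adjusted p = 0.3931).

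Counted together, the 8 tested members went as follows. With Dex in dKO cells 1 member was called higher (Fos) and 3 lower (Jun, Egr1, Egr2), while 8.62% of all tested genes were called higher and 5.99% lower. With Dex in control cells 2 were called higher (Fos, Jun) and 3 lower (Egr1, Egr2, Atf3), against 8.85% and 11.4% of all genes. In dKO against control cells none was called higher and 6 were called lower under EtOH (Fos, Jun, Jund, Egr1, Egr2, Atf3), against 10.7% and 15.8% of all genes. Under Dex none was called higher and 4 were called lower (Fos, Jun, Egr1, Atf3), against 9.92% and 9.82%. The Dex response differed between genotypes for 1 member, Jun, on the lower side, against 1.01% of all genes, and for none on the higher side, against 1.28%. The median difference of the 8 members was -0.18 with Dex in dKO cells, -0.34 with Dex in control cells, -0.52 for genotype in EtOH and -0.36 for genotype in Dex, where all genes had medians of 0.03, -0.04, -0.05 and 0.01. Without the 3 arrays the members called lower in dKO cells were 2 in EtOH (Fos, Atf3) and 6 in Dex (Fos, Fosl1, Jun, Egr1, Egr2, Atf3), where 16.8% and 28% of all genes were called in either direction. Without dKO EtOH 3 alone the members called were 6 for Dex in dKO cells, 6 for Dex in control cells, 6 for genotype in EtOH, 4 for genotype in Dex and 2 for the difference of responses, and the genes called over the whole table were 2212, 1986, 3123, 1946 and 1202.

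**Figure D2:**
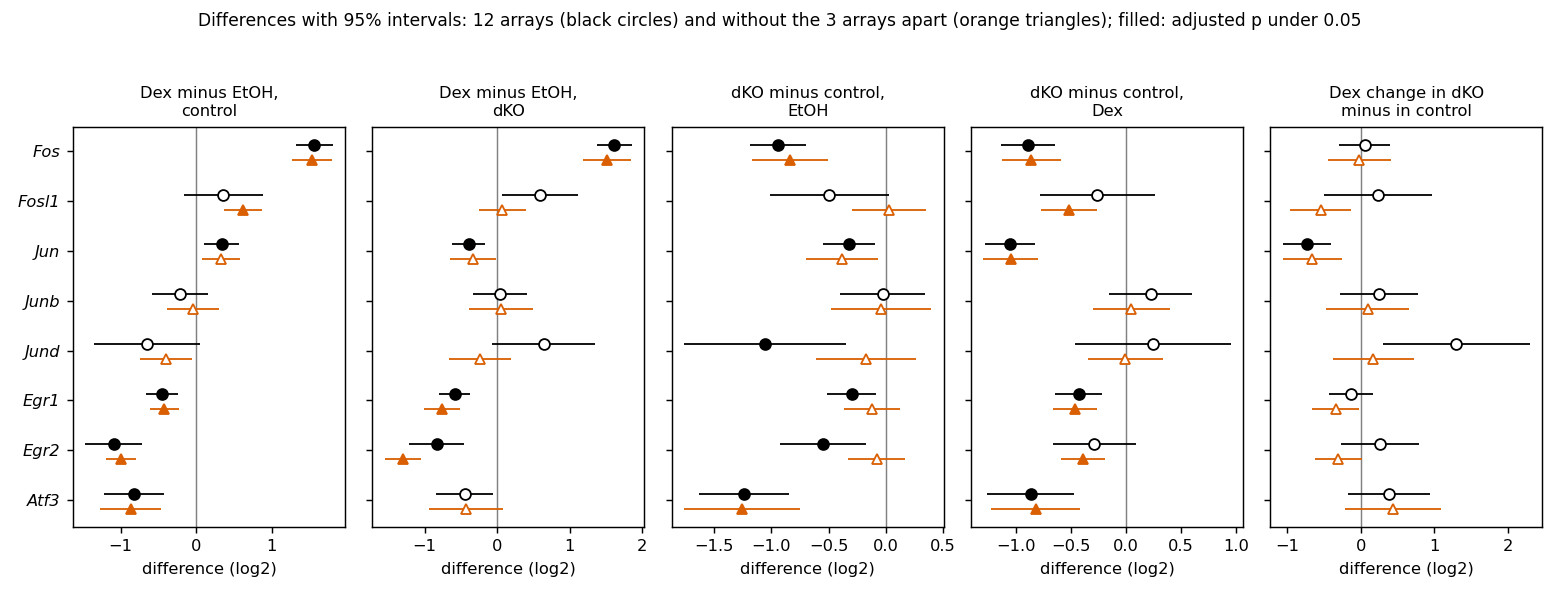
Difference of log2 signal (horizontal axis) with its 95% interval for the 8 tested genes in each of the 5 comparisons, over 12 arrays (black circles) and without the 3 arrays that stood apart (orange triangles); filled symbols had an adjusted p under 0.05. Fos, Atf3 and Jun under Dex keep the position of their genotype differences in both fits, whereas Jund in EtOH is at -1.05 over 12 arrays and -0.17 without the 3.

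When each array was instead scaled to its own median, the median difference of all genes was 0.14 with Dex in dKO cells, -0.15 with Dex in control cells, -0.25 for genotype in EtOH, 0.03 for genotype in Dex and 0.30 for the difference of responses. The calls were then 10.3% of all genes higher and 4.07% lower with Dex in dKO cells, and 5.72% and 15.6% in control cells. For genotype they were 6.15% and 30.7% in EtOH, and 9.06% and 8.25% in Dex. For the difference of responses they were 7.08% and 1.2%. Taken relative to these medians, Fos with Dex was 1.50 above the median in dKO cells (1.59 with quantile normalization) and 1.59 above it in control cells (1.60), and Jun under Dex was 1.10 below it in dKO cells (1.06). Atf3 in dKO cells under EtOH was 1.18 below the median (1.19 with quantile normalization). With median scaling the member calls were the same number lower in EtOH (6), 3 in place of 4 lower in dKO cells under Dex, 1 higher and 1 lower with Dex in dKO cells, 1 higher and 3 lower with Dex in control cells, and none for the difference of responses.

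Macrophage markers also differed by genotype. Of the 7 tested, 6 were called lower and none higher in dKO than in control cells under each treatment. The median differences were -0.88 in EtOH and -0.70 in Dex. Of all genes 15.8% were called lower in EtOH and 9.82% in Dex. With Dex, 2 were called higher and none lower in dKO cells, and 3 higher and 2 lower (Adgre1 and Cd14) in control cells. Of all genes 8.62% and 5.99%, and 8.85% and 11.4%, were called in these directions. Members such as Atf3 and Egr1 are also expressed by macrophages. In whole-culture RNA, fewer cells of a type and less RNA per cell cannot be told apart. The part of macrophages in the lower Fos, Jun, Egr1, Egr2 and Atf3 of dKO cultures was not tested. The plot of macrophage markers gives their values by array.

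**Figure D3:**
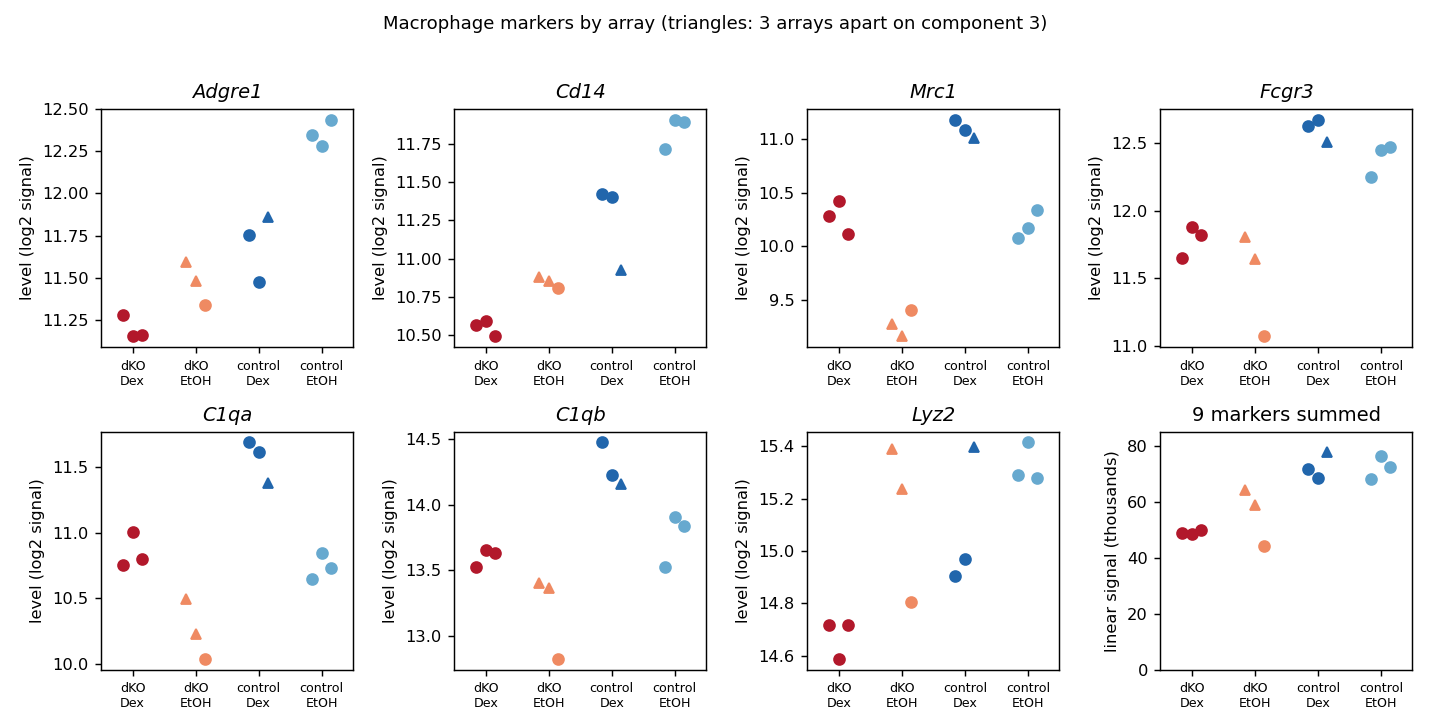
Log2 signal of the 7 detected macrophage markers and, in the last panel, the summed linear signal of the 9 markers with a probe, on each array by group; triangles are the 3 arrays that stood apart. By group mean Adgre1, Cd14 and Lyz2 are lowest in dKO Dex and highest in control EtOH. Mrc1, Fcgr3, C1qa and C1qb are instead lowest in dKO EtOH and highest in control Dex. The summed signal is 48474 to 49811 in dKO Dex against 68576 to 77699 in control Dex.

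The genes whose signal followed the members most closely over the 12 arrays were Sla (Pearson r = 0.99) and Nfil3 (0.98) for Fos, Apaf1 (0.97) and Sgpl1 (0.96) for Jun, Scarf2 and Slc15a3 (0.97 each) for Egr1, Pdgfb (0.96) and Prkcb (0.95) for Egr2, and Casp1 (0.98) and Pf4 (0.96) for Atf3. For Jund they were Tti1 and Tbc1d13 (0.96 each). These are descriptions over arrays that share treatment, genotype and normalization.

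Other immediate early genes were set beside the members from a list of 34, of which 21 were tested. With Dex, 9 were called higher and 1 lower (Ier3) in dKO cells (median 0.29), and 10 higher and none lower in control cells (median 0.45), where of all genes 8.62% and 5.99%, and 8.85% and 11.4%, were called. Csrnp1, a nuclear factor induced by growth signals, rose by 1.47 ± 0.11 in dKO and 1.61 ± 0.11 in control cells. Dusp1, the phosphatase that switches off MAP kinases and a known glucocorticoid target, rose by 0.70 ± 0.11 in dKO and 1.00 ± 0.11 in control cells, and Zfp36, which destabilises cytokine transcripts, by 0.88 ± 0.11 and 0.99 ± 0.11. In dKO against control cells 6 were higher and 1 lower under EtOH (median 0.08), a split that median scaling turned to 3 higher and 8 lower, and 3 were higher and 4 lower under Dex (median -0.05), where of all genes 10.7% and 15.8%, and 9.92% and 9.82%, were called. Among the higher ones Maff, a small Maf protein, differed by 0.96 ± 0.12 in EtOH and 0.97 ± 0.12 in Dex, Plk2, a polo-like kinase, by 0.74 ± 0.12 and 0.79 ± 0.12, and Ccn2, a matricellular growth regulator, by 0.77 ± 0.13 in EtOH. Without the 3 arrays the list median was 0.24 with Dex in dKO cells and 0.02 for genotype in EtOH.

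Myc, the growth factor-induced regulator of proliferation, was above background in control Dex and at background in dKO Dex and in control EtOH. Myc was at least 1.36-fold lower in dKO than in control cells under Dex (adjusted p = 0.001973) and at least 1.47-fold higher with Dex in control cells (adjusted p = 0.001725). Its Dex difference in dKO cells, with both groups near background, was fitted at -0.09, and the difference of responses at -1.35 ± 0.31 (adjusted p = 0.04878), which without the 3 arrays was -0.94 (adjusted p = 0.1044).

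The partner list held 21 other leucine zipper factors, 13 of them tested. With Dex, 2 were called higher and 1 lower in dKO cells, and 1 higher and 2 lower in control cells. In dKO against control cells 5 were higher and 1 lower under EtOH, and 3 higher and none lower under Dex. Of all genes 8.62% and 5.99%, 8.85% and 11.4%, 10.7% and 15.8%, and 9.92% and 9.82% were called in these directions. The Dex counts of 1 or 2 genes lie near these shares. The list medians were -0.10, 0.02, 0.02 and 0.07 in that order. Without the 3 arrays they were -0.05, 0.05, 0.16 and 0.18. Ddit3 (CHOP), the stress factor that pairs with C/EBP proteins, fell with Dex by 0.72 ± 0.10 in dKO and by 0.45 ± 0.10 in control cells, and was higher in dKO cells by 0.65 ± 0.10 in EtOH and 0.38 ± 0.10 in Dex. Atf5 was higher in dKO cells by 0.64 ± 0.10 in EtOH and 0.54 ± 0.10 in Dex. Jdp2, a repressor of AP-1, rose by 0.39 ± 0.09 with Dex in dKO cells (adjusted p = 0.01642), a call lost without the 3 arrays (0.28, adjusted p = 0.1879). Crem fell by 1.03 ± 0.28 with Dex in control cells (adjusted p = 0.02188), also lost without them (-0.77, adjusted p = 0.05352). Of 9 tested kinases and serum response regulators upstream of these genes, Mapk14 (p38α) was called with Dex in control cells. It was 0.48 ± 0.12 higher there, where 8.85% of all genes were called higher. None passed in the other 4 comparisons.

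AP-1 target genes of fibroblasts were followed with a list of 22, of which 15 were tested. With Dex, 2 were called higher and 5 lower in dKO cells (median -0.08), and 3 higher and 6 lower in control cells (median -0.36). Of all genes 8.62% and 5.99%, and 8.85% and 11.4%, were called in these directions, so the 2 higher in dKO cells lie near the general share. In dKO against control cells 6 were higher and none lower under EtOH (median 0.24), and 5 higher and 2 lower under Dex (median 0.18), against 10.7% and 15.8%, and 9.92% and 9.82%, of all genes. With median scaling the EtOH split was 6 higher and 3 lower, against 6.15% and 30.7% of all genes. Without the 3 arrays the list median with Dex in dKO cells was -0.30. The matrix-degrading enzymes Mmp3 and Mmp13, classic AP-1 targets, were higher in dKO cells by 1.79 ± 0.13 and 1.75 ± 0.13 under EtOH and by 2.46 ± 0.13 and 1.66 ± 0.13 under Dex. Nqo1, a detoxifying enzyme also driven by Nrf2, was higher by 2.12 ± 0.20 and 1.56 ± 0.20. These 3 target genes had the smallest p of the list in each genotype comparison. A link to the levels of Fos and Jun was not tested. With Dex, Mmp13 fell by 0.98 ± 0.13 in dKO cells and by 0.89 ± 0.13 in control cells. Ccl2, a monocyte chemoattractant, fell by 1.53 ± 0.20 in dKO cells and by 1.24 ± 0.20 in control cells. Plau, the urokinase protease, fell by 0.72 ± 0.16 in dKO cells and by 1.23 ± 0.16 in control cells. Il6, an inflammatory cytokine, was at background with Dex, at least 1.39-fold lower in dKO cells and at least 1.29-fold lower in control cells. Lox, the collagen crosslinking enzyme, rose by 0.56 ± 0.11 in dKO cells (without the 3 arrays 0.48, adjusted p = 0.1157) and by 1.22 ± 0.11 in control cells. No gene of this list was called for a difference of responses.

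Egr targets, 8 tested of 11 listed, gave 1 higher and 1 lower with Dex in dKO cells, and 0 higher and 2 lower in control cells. Of all genes 8.62% and 5.99%, and 8.85% and 11.4%, were called in these directions, so these counts lie near the general share. Pdgfb, a growth factor chain with Egr sites in its promoter, fell with Dex by 0.70 ± 0.20 in dKO and by 1.13 ± 0.20 in control cells. Id2, an inhibitor of helix-loop-helix factors, differed by -0.24 ± 0.10 with Dex in dKO cells (adjusted p = 0.1429) and fell by 0.49 ± 0.10 in control cells. Pdgfa rose by 0.34 ± 0.10 in dKO cells (adjusted p = 0.04905; 0.17 without the 3 arrays, adjusted p = 0.5052) and differed by -0.06 ± 0.10 in control cells (adjusted p = 0.7395). In dKO against control cells 1 was higher and 3 were lower under EtOH, and none was called under Dex. Of all genes 10.7% and 15.8%, and 9.92% and 9.82%, were called. The list medians were 0.19, -0.32, -0.48 and 0.01 in that order. With median scaling 1 was higher and 7 were lower for genotype in EtOH, where 30.7% of all genes were called lower. The same scaling called 2 higher for the difference of responses, against none with quantile normalization. Without the 3 arrays the list median was -0.14 with Dex in dKO cells, and for genotype -0.06 under EtOH and -0.17 under Dex. The genes named next, up to Nab2, were called in dKO against control cells under EtOH over 12 arrays. Vegfa was higher by 0.86 ± 0.16. Id2 was lower by 0.34 ± 0.10 (-0.43 without the 3 arrays) and Pdgfb by 0.78 ± 0.20 (-0.28 without the 3 arrays). Nab2, an Egr corepressor that is itself an Egr target, was lower by 0.61 ± 0.20 (adjusted p = 0.04249, and -0.42 without the 3 arrays). No other of the 6 tested corepressors and AP-1 binding regulators was called in any comparison over 12 arrays. Of all genes 15.8% were called lower in dKO cells under EtOH, so this 1 gene of 6 lies near the general share.

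**Figure D4:**
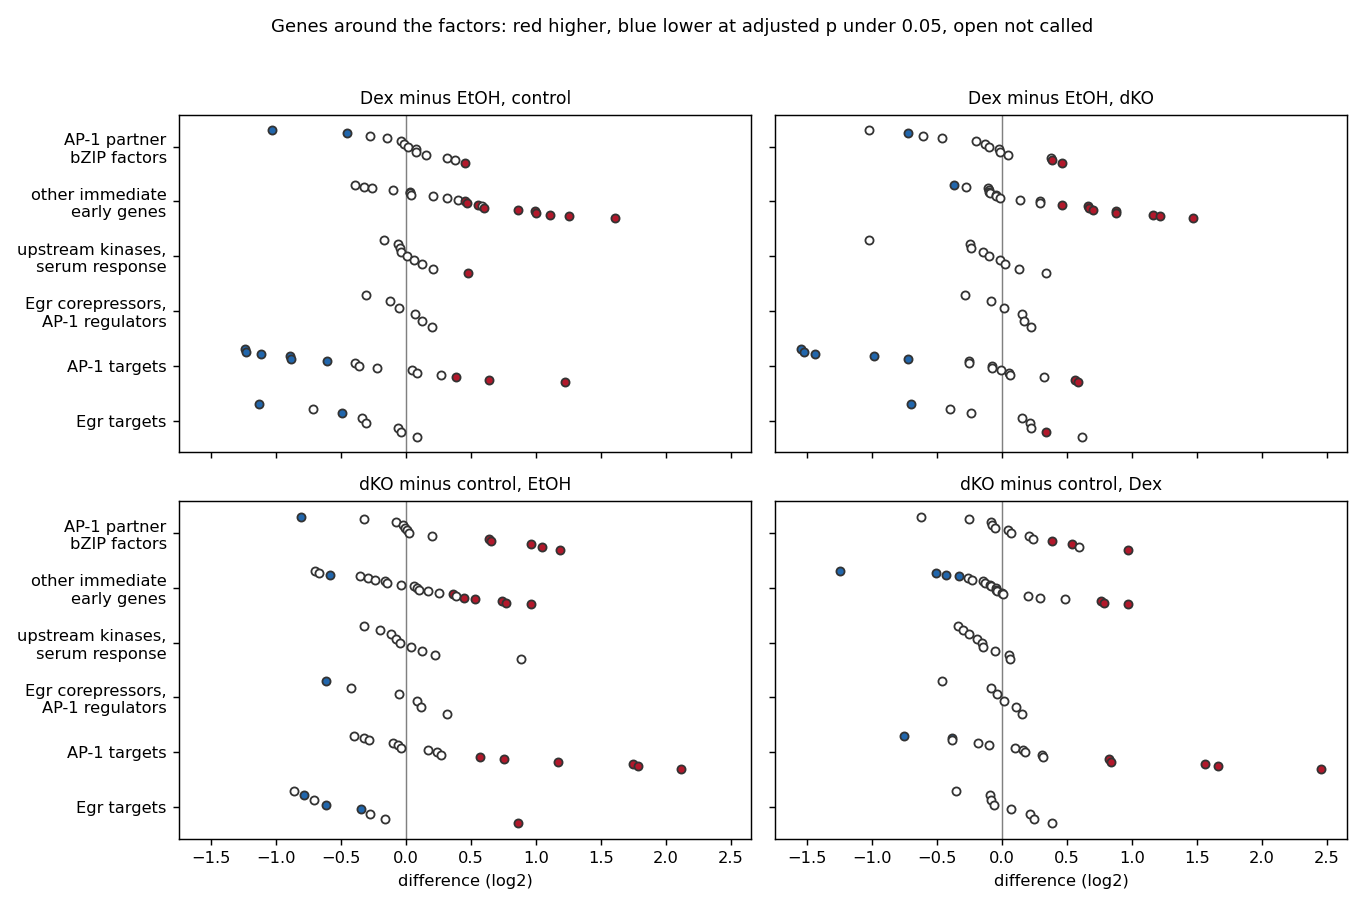
Difference of log2 signal (horizontal axis) of each tested gene of the 6 lists, 1 point per gene, in the 4 comparisons of 2 groups; red and blue mark genes higher and lower at an adjusted p under 0.05, and open points were not called. The AP-1 targets spread to both sides with Dex and reach 2.46 (Mmp3) in dKO against control cells under Dex, while the kinases hold 1 called gene, Mapk14.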

How the data were processed

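The submitters' processing notes name GenomeStudio, with no version. Per the file headers, the deposited intensities are mean bead signals per probe, not normalized, each with a detection p-value. Per the labels, Trizol and an RNeasy clean-up gave the RNA, which was amplified to biotinylated cRNA. A second deposited table of processed intensities served as an alternative, with steps not given in the sources used.

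In R 4.3.3 with limma 3.58.1, signals were background corrected (nec, offset 16), quantile normalized and taken to log2. Probes were named from the platform annotation, updated by Entrez ID for 23962 of the 23978 that carry a symbol (1719 carry none). Kept were 11382 named probes with detection p under 0.01 on 3 or more arrays, and the probe of highest mean stood for its gene (8420 genes, 2166 with further detected probes). A model with 1 mean per group was fitted with lmFit and eBayes (11.5 total degrees of freedom), giving 5 comparisons. The interaction is the Dex difference in dKO cells less that in control cells. Adjusted p-values come from this fit and are over all 8420 genes, unless another setting or set of arrays is named. Those of another fit are over the genes or probes tested in it. Where no array of a group was above background, its difference is given as at least N-fold, with each array raised to its lowest signal above background. The script was tested on simulated data.

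Same-numbered arrays were not taken as pairs: their residuals correlated between -0.18 and 0.14 over 12 pairs, 3 of them over 0.1. No scan date or chip was used. The members and the 6 lists were chosen with earlier results of these data known, and Maff and Nab2 each stand in 2 lists. Named list genes are the called ones with the smallest p in each comparison. Ier3, Adgre1, Cd14 and the scaling examples were chosen after their values were seen. The number of arrays limits the precision.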

Additional observations from a re-analysis of the deposited data

Results flagged for a closer look

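For 2 genes the response to Dex differed between the genotypes by the interaction term of the limma fit. Jun was lower with Dex in dKO cells and higher with Dex in control cells, and the difference of responses was -0.73 (adjusted p = 0.03433), with the sign the same in all 12 fits that left out 1 array but the call lost in 10 of them. Myc, a member of the list of other immediate early genes, had a difference of responses fitted at -1.35 (adjusted p = 0.04878), but it was above background on no array of dKO Dex or control EtOH and on 1 of dKO EtOH, so this size cannot be relied on. In both cases the direction was kept without the 3 arrays that stood apart, and the adjusted p was then 0.1248 for Jun and 0.1044 for Myc.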

How the results depend on the processing

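Over the 8 members and 5 comparisons, fits that left out 1 array gave 417 values with the same direction and call, 48 that lost the call, 7 that gained it and 8 that reversed, and the other planned settings gave 407, 35, 8 and 6. Fits without the 3 arrays that stood apart, chosen after seeing the data, gave 24, 7, 3 and 6. The number of members called was 2 in place of 4 for Dex in dKO cells with median scaling. It was 2 in place of 6 for genotype in EtOH with no filter, with only the compared groups, with the replicate block and without the 3 arrays. For the interaction it was 0 in place of 1 with median scaling, no filter, either replicate block and without the 3 arrays, and 2 with array weights. Leaving out 1 array gave 3 to 6 members called for Dex in dKO cells, 4 to 6 for Dex in control cells, 2 to 6 for genotype in EtOH, 4 for genotype in Dex and 0 to 2 for the interaction. Of values that turned in sign, the Fos interaction was -0.17 with no background correction, -0.0325 with offset 50, -0.16 with the deposited values and -0.021 without the 3 arrays, and -0.0472 to 0.1263 when 1 array was left out. The Egr1 interaction was 0.16 with median scaling. With array weights Junb was -0.0262 for Dex in dKO cells and 0.0229 for genotype in EtOH, and with 1 array left out -0.0342 to 0.113 and -0.1447 to 0.0805. Without the 3 arrays Jund was -0.24 for Dex in dKO cells and -0.0042 for genotype in Dex, Fosl1 was 0.0275 for genotype in EtOH, and the interactions of Fosl1 and Egr2 were -0.55 and -0.31. With 1 array left out Jund ranged from -0.0042 to 0.4557 for genotype in Dex and the Fosl1 interaction from -0.0252 to 0.4949. Over all genes the interaction gave 193 calls, against 315 with no background correction, 323 with the deposited values, 697 with median scaling, 59 with no filter, 1777 with array weights, 37 with the replicate block, 32 with the block within genotype and 68 without the 3 arrays. Dex in dKO cells gave 1230, against 3159 with array weights, 745 with the block within genotype and 673 without the 3 arrays, and genotype in EtOH gave 2234, against 4146 and, without the 3 arrays, 1411. Array weights gave 2824 for Dex in control cells in place of 1706 and 2905 for genotype in Dex in place of 1662. With 1 array left out these counts ranged from 31 to 1202 for the interaction, 717 to 2212 for Dex in dKO cells, 1221 to 1986 for Dex in control cells, 1448 to 3123 for genotype in EtOH and 1155 to 1946 for genotype in Dex, the highest without dKO EtOH 3 in each. The causes were not tested. The block within genotype gives no genotype comparison and the compared groups alone no interaction. Signals near background limit what can be read from Fosb, Jund and Egr2.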
